A study of Homo sapiens with 4 samples.

Results

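MHC class I antigen presentation was examined in T47D cells through 8 genes, chosen by symbol: the heavy-chain genes HLA-B, HLA-C and HLA-E, the light-chain gene B2M, the peptide transporter genes TAP1 and TAP2, the tapasin gene TAPBP, and NLRC5, which codes for a transcriptional activator of class I genes. All 8 had a row among the 20515 genes in the count table, and all 8 passed the filter on low counts. T47D cells are an established human breast cancer line of luminal type. There were 2 libraries from cells treated with baicalein, a flavonoid from the root of Scutellaria baicalensis, and 2 from cells with no treatment, used as controls. Dose, duration and vehicle were not stated (not given in the sources used here), and a single cell line was studied. Separate cultures are not mentioned for the 2 libraries of a group, so p-values reflect the spread between these samples alone, and that spread may be technical.

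Class I molecules display short peptides from the cell's own proteins to CD8 T cells. Peptides cut by the proteasome are carried into the endoplasmic reticulum by the TAP1-TAP2 transporter. There tapasin, calreticulin and ERp57 hold the empty heavy chain with beta-2-microglobulin until a peptide fits. Transcription of the class I heavy-chain genes and B2M rests on an SXY promoter module, bound by the RFX complex, CREB/ATF factors and NF-Y, to which NLRC5 is recruited. Interferon-response and kappaB elements add to it, bound by factors such as IRF1 and NF-kB.

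Total counts were 56732569 and 38597207 in baicalein 1 and 2 and 45341857 and 45618604 in control 1 and 2. Levels are in CPM, counts scaled to the library total with edgeR's TMM factors, and 3 counts corresponded to 0.0549 to 0.0805 CPM. Libraries of the same group correlated at r = 0.9946 for baicalein and 0.9945 for control over the log2 CPM of 18369 tested genes, which are not independent replicates. All 9 luminal breast markers listed were present; 1 was higher, 7 were lower and 1 was not called in baicalein (median log2 fold change -0.91). The lower ones included the hormone receptor genes ESR1 and PGR, with log2 fold changes of -2.20 and -3.05, and GATA3 with -1.48. CDH1 was the higher marker, with 1057 and 1079 CPM in baicalein 1 and 2 and 545 and 564.8 CPM in control 1 and 2 (log2 fold change 0.94). EPCAM, named after its values were seen, was the marker not called (log2 fold change 0.10). It was called higher once GC content and length were corrected (0.085). Of 9 fibroblast and endothelial markers 6 had no row, and 2 were tested and both were higher. COL1A1 had 149.9 and 139.9 CPM in baicalein 1 and 2 and 90.03 and 100.4 CPM in control 1 and 2. LUM had at most 1.07 CPM in any library. COL1A2, named after its values were seen and left out by the filter, went the other way. It had 1 and 0 counts in baicalein 1 and 2 and 5 and 5 in control 1 and 2. Of 15 immune cell markers 4 had a row in the table, and of the 3 tested 1 was higher, 1 lower and 1 not called. The 4 had a summed level of 1.75 and 2.04 CPM in baicalein 1 and 2 and 1.97 and 2.32 CPM in control 1 and 2. PTPRC, the pan-leukocyte gene, had 5 and 6 counts in baicalein 1 and 2 and 0 in both controls. In bulk RNA, a change in the number of cells that express a gene and a change in RNA per cell cannot be told apart.

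The promoters are shown because the values that follow set genes of factors known to bind such promoters beside the class I genes themselves. RefSeq's promoter table for GRCh38.p14 held 6 of the 8 genes, and HLA-E and NLRC5 were not matched in it. The 200 bases before the first start site listed for each gene are printed 5′ to 3′ on the strand of the gene. TAP1 had a second start site in the table (window chr6:32852762-32852961, minus strand), whose sequence is not printed. These are chr6:31357180-31357379 (minus strand) for HLA-B, chr6:31272093-31272292 (minus) for HLA-C, chr15:44711317-44711516 (plus) for B2M, chr6:32853705-32853904 (minus) for TAP1, chr6:32838740-32838939 (minus) for TAP2 and chr6:33314079-33314278 (minus) for TAPBP. Capitals mark matches, on either strand, to CCAAT (the core of the Y box, bound by NF-Y), TGACG (the core of a CREB/ATF site, as in the X2 box), the pattern of an interferon-stimulated response element, ISRE (GAAA, any 2 bases, GAAA) or the pattern of a kappaB site (GGG, any 2 bases, TT, any base, CC).
HLA-B: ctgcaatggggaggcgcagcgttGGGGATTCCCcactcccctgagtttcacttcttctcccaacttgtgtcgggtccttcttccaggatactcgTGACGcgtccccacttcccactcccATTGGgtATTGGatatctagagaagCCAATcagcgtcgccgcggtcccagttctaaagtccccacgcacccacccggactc
HLA-C: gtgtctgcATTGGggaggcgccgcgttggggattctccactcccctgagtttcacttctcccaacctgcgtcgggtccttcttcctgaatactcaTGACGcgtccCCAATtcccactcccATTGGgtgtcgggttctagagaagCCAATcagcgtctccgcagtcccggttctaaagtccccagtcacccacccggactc
B2M: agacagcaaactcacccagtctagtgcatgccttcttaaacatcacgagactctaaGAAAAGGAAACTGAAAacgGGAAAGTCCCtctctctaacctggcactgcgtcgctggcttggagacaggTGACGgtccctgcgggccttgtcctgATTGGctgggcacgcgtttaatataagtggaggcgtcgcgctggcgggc
TAP1: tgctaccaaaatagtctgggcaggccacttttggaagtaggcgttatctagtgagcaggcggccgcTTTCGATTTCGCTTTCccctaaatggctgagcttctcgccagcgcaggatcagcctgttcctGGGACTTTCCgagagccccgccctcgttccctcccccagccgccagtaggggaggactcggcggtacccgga
TAP2: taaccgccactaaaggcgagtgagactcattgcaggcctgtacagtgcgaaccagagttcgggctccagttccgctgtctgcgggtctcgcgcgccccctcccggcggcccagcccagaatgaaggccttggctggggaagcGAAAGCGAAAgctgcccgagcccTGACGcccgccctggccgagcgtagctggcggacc
TAPBP: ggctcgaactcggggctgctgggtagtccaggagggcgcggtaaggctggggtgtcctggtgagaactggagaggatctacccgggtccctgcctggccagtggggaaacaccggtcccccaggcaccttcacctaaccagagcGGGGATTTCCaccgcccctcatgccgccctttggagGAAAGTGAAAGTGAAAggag
CCAAT lay in the windows of HLA-B, HLA-C and B2M, against 28% of the 35116 windows of this length in the table, and TGACG in those of HLA-B, HLA-C, B2M and TAP2, against 18.4%. In HLA-B and HLA-C a TGACG began 106 and 105 bases before the start and a CCAAT followed 56 bases before it in both. Between them lay matches to CCAAT on the opposite strand (ATTGG), which began 81 and 74 bases before the start in HLA-B and 80 in HLA-C. HLA-C also had a CCAAT that began 95 bases and an ATTGG that began 192 bases before the start. The ISRE pattern was found in B2M, TAP1, TAP2 and TAPBP, against 2.40% of all windows, in overlapping pairs except in TAP2. The kappaB pattern was found in HLA-B, B2M, TAP1 and TAPBP, against 4.28%, and the pattern TTCNNNGAA (a gamma-activated site) in none of the 6 windows printed, against 5.09%. The window of the second TAP1 start site held a match to it, 189 to 181 bases upstream, and to no other pattern. No match overlapped a match to a different pattern. The letters are those of the reference, not of the T47D alleles. A match is not a measured site, and the lack of a match to these patterns does not show that a site is absent.

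**Figure D1:**
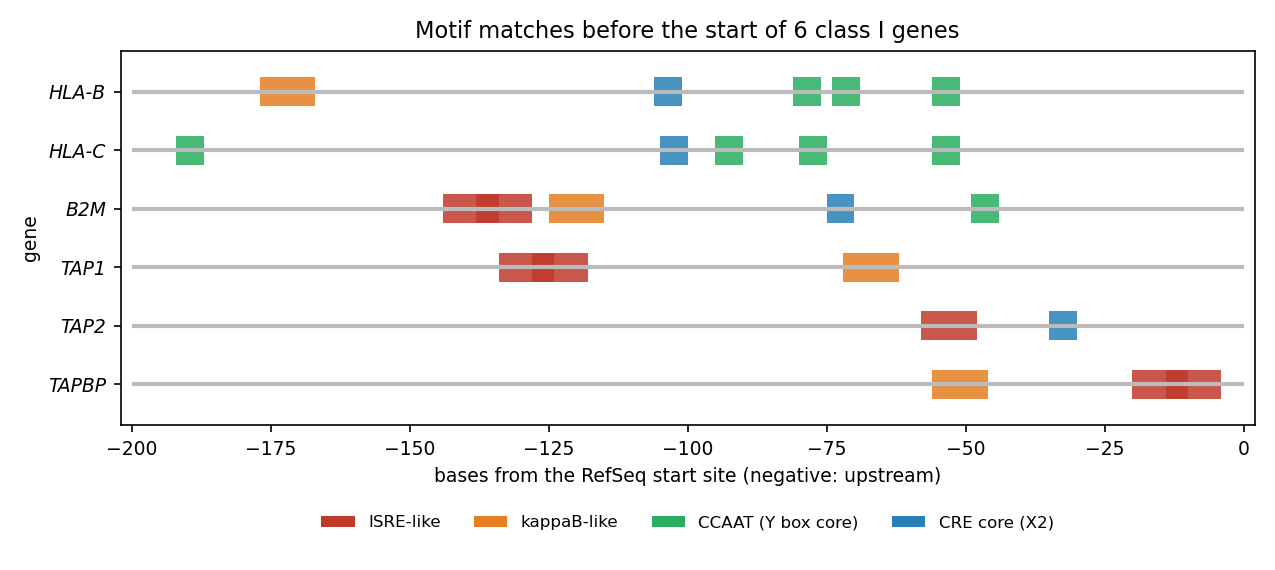
Positions of motif matches in the 200 bases before the RefSeq start sites of 6 class I genes, as bases from the start (negative is upstream), 1 row per gene, with colours for the motif. HLA-B and HLA-C share the CCAAT match 56 bases upstream and each have further CCAAT matches before it. They carry no ISRE match, whereas B2M, TAP1, TAP2 and TAPBP carry at least 1.

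Baicalein-treated cells held about 4 times as much NLRC5 RNA as controls, while the other 7 of the 8 genes differed by less than 1.5-fold in either direction. HLA-B rose by a fold of 1.21, HLA-C and HLA-E did not pass the test, and B2M, TAP1, TAP2 and TAPBP fell. By edgeR's quasi-likelihood F test, adjusted by Benjamini-Hochberg over all 18369 tested genes, 2 of the 8 genes were higher and 4 lower at adjusted p below 0.05. Of all tested genes 37.4% were called higher and 37.6% lower, so that the share of the 8 genes called was not above that of all genes (75.0% in either direction). The median log2 fold change of the 8 genes was -0.18, against 0.0017 over all tested genes. The median size of a log2 fold change, regardless of direction, was 0.29 for the 8 genes and 0.57 for all tested genes.

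**Figure D2:**
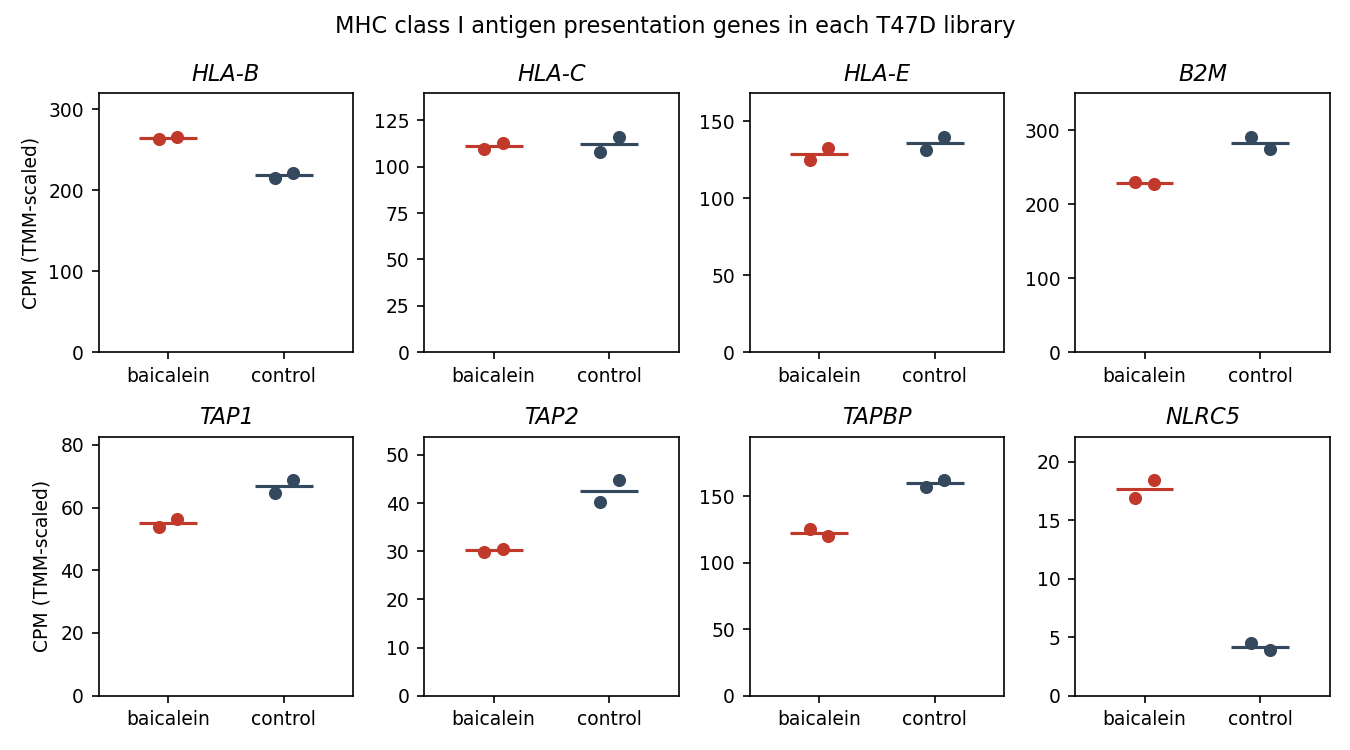
CPM (TMM-scaled) of the 8 genes in each library, with baicalein left and control right in each panel, points for libraries and lines for group means (n = 2 each). Both baicalein libraries lie above both controls for NLRC5 and HLA-B and below them for B2M, TAP1, TAP2 and TAPBP, and the groups overlap for HLA-C and HLA-E.

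NLRC5 (ENSG00000140853, chromosome 16, positions 56989485 to 57083531 of GRCh38, plus strand) had 16.9 and 18.4 CPM in baicalein 1 and 2, against 4.53 and 3.87 CPM in control 1 and 2. Every baicalein library was thus far above either control. The counts behind these levels were 925 and 686 in baicalein 1 and 2 and 214 and 182 in control 1 and 2. The log2 fold change was 2.07 (SE 0.10, adjusted p = 8.52e-15), and 690 tested genes (3.76%) had a larger rise. It remained the least abundant of the 8 genes per length, at 2.59 ± 0.156 CPM per kilobase in baicalein and 0.616 ± 0.0684 in control (SD, n = 2 each), with the length of the main (APPRIS principal) transcript.

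Among the heavy chains, HLA-B (ENSG00000234745, chromosome 6, minus strand), which codes for a classical class I molecule, had 264 and 266 CPM in baicalein 1 and 2, against 215 and 222 CPM in control 1 and 2. The groups did not overlap, as was true in either direction of 86.9% of all tested genes. The log2 fold change was 0.28 (SE 0.04, adjusted p = 4.61e-06). HLA-C (ENSG00000204525, positions 31268749 to 31272130), the other classical gene of the 8, had 109.5 and 113 CPM in baicalein 1 and 2 and 108 and 116 CPM in control 1 and 2, so that the baicalein values lay between the controls. Its log2 fold change was -0.01 with a 95% interval of -0.11 to 0.08 (adjusted p = 0.789). HLA-E (ENSG00000204592, positions 30489467 to 30494205), whose product presents leader peptides of other class I chains to the NKG2A receptor of natural killer cells, had 125 and 133 CPM in baicalein 1 and 2 and 131 and 140.0 CPM in control 1 and 2. These ranges overlapped as well, with a log2 fold change of -0.07 (95% interval -0.17 to 0.02, adjusted p = 0.154). HLA-F, a weakly expressed non-classical gene listed beside the 8, fell to 6.73 and 6.58 CPM in baicalein 1 and 2, against 14.9 and 15.3 CPM in control 1 and 2 (log2 fold change -1.18, adjusted p = 2.04e-11). HLA-G had no row and was not analysed here.

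Of the summed counts of HLA-B, HLA-C, HLA-E and HLA-F, a share that does not depend on scaling between libraries, HLA-B made up 52.2% and 51.4% in baicalein 1 and 2, against 45.9% and 45% in control 1 and 2. The share of HLA-F was 1.33% and 1.27% in baicalein 1 and 2, against 3.18% and 3.11% in control 1 and 2. With all class I heavy-chain rows of the table added into 1, pseudogenes included, the summed class I heavy chains had a log2 fold change of 0.06 (95% interval -0.02 to 0.15, adjusted p = 0.170), so that a change of the sum was not detected. This result depended on the processing. Without control 2 the log2 fold change of the sum was 0.10, and with GC content and length corrected it was 0.34. Over 15 alternatives it ranged from -0.039 to 0.34, and its adjusted p from 7.57e-21 to 0.526. HLA genes differ between people, and how far reads of T47D alleles were lost or moved to another HLA gene was not tested. In the reference transcripts, 0% of the 100-base windows of HLA-B, 0.3% of those of HLA-C and 0.6% of those of HLA-E also occur in another gene. The annotated HLA-B locus (positions 31269491 to 31357188) runs across HLA-C and shares 35 exon bases with it. Whether counting used strand is unknown, and 17.8% of the exon bases of HLA-B lie opposite the pseudogene AL671883.2, which had 96 and 71 counts in baicalein 1 and 2 and 68 and 92 in control 1 and 2.

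The light chain gene B2M (ENSG00000166710, chromosome 15, positions 44711487 to 44718877), needed by every class I heavy chain, had 230.3 and 227 CPM in baicalein 1 and 2, against 291 and 274 CPM in control 1 and 2. Both treated libraries were lower than both controls, and the log2 fold change was -0.31 (SE 0.04, adjusted p = 1.97e-06). There were 1.15 and 1.17 HLA-B counts per B2M count in baicalein 1 and 2, against 0.739 and 0.809 in control 1 and 2, with no overlap. Per kilobase of the main transcript, HLA-B stood first in baicalein at 171 ± 1.24 CPM and B2M second at 134 ± 1.18, whereas in control B2M stood first at 166 ± 7.16 and HLA-B second at 141 ± 2.88. This order depends on the transcript length taken: per kilobase of all annotated exons HLA-B had rank 1 in both groups and B2M rank 4 in baicalein and 2 in control. HLA-C, TAPBP and HLA-E followed at 72.4, 65.1 and 49.6 CPM per kilobase of the main transcript in baicalein, and TAPBP, HLA-C and HLA-E at 84.7, 73.1 and 52.1 in control. TAP1 and TAP2 were lower still, at 18.6 and 12.1 in baicalein and 22.6 and 17.0 in control. Within a group, the ranges of neighbours in this order did not overlap.

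The peptide transporter genes and the tapasin gene fell, TAP1 without a call once GC content and length were corrected. TAP2 (ENSG00000204267, chromosome 6, positions 32821833 to 32838780) had 29.9 and 30.4 CPM in baicalein 1 and 2, against 40.2 and 44.8 CPM in control 1 and 2 (log2 fold change -0.50, SE 0.06, adjusted p = 8.44e-08). Of its 100-base windows 79.8% also occur in AL669918.1, so the split between the 2 rows is uncertain. AL669918.1 is an annotated gene on the same strand that shares exon bases with both TAP2 and HLA-DOB. AL669918.1 had 827 and 539 counts in baicalein 1 and 2 and 830 and 1067 in control 1 and 2, and a log2 fold change of -0.44 (adjusted p = 0.00176). TAP1 (ENSG00000168394, positions 32845209 to 32853978), the other transporter subunit, had 53.7 and 56.2 CPM in baicalein 1 and 2, against 64.7 and 68.8 CPM in control 1 and 2 (log2 fold change -0.28, SE 0.05, adjusted p = 2.70e-05). TAPBP (ENSG00000231925, positions 33299694 to 33314387), which codes for tapasin, had 125 and 120.4 CPM in baicalein 1 and 2, against 157 and 162 CPM in control 1 and 2 (log2 fold change -0.38, SE 0.04, adjusted p = 5.85e-08). In each of the 3 genes the baicalein libraries lay below both controls.

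Several of these small changes depended on the GC content and length of the transcripts. With a trend on both removed from each library, 4 of the 8 genes were higher and 3 lower, where 40.9% and 35.9% of all 17867 genes with both values were. HLA-B then had a log2 fold change of 0.56, HLA-C of 0.36 (adjusted p = 3.52e-10) and HLA-E of 0.10 (adjusted p = 0.0110), the last 2 turned in direction, and the heavy-chain sum rose by 0.34. TAP1 lost its call at -0.05 (adjusted p = 0.222) and TAPBP fell by 0.15. NLRC5 at 2.20, B2M at -0.38 and TAP2 at -0.51 kept direction and call. Over 15 alternatives the adjusted p ranged from 1.58e-26 to 0.944 for HLA-C, from 0.000594 to 0.797 for HLA-E and from 5.20e-15 to 0.223 for TAP1. The transcripts of HLA-C and HLA-B had 62.7% and 59.0% GC, those of TAP2 and B2M 49.1% and 40.6%. Without control 1, HLA-E passed the test, with a log2 fold change of -0.12 (adjusted p = 0.000594).

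**Figure D3:**
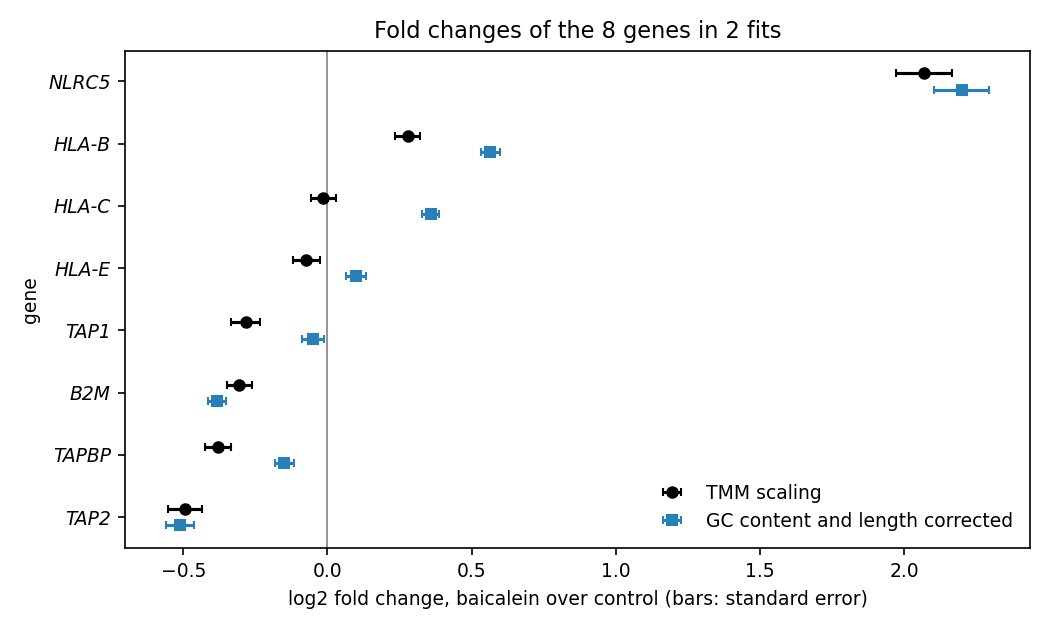
Log2 fold change of baicalein over control for the 8 genes with TMM scaling (black circles) and with GC content and length corrected (blue squares), bars being standard errors. NLRC5 stays near 2 in both fits, HLA-C moves to 0.36 and TAP1 to -0.05 under the correction, and B2M and TAP2 stay negative.

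Genes that supply peptides fell as well. Of 6 genes of the immunoproteasome and its activators 5 were called lower by edgeR (median log2 fold change -0.56). The other, PSMB10, had -0.18 (adjusted p = 0.139). On the same strand it shares 34.8% of its exon bases with AC040162.1, so the split between these rows is uncertain. Of all tested genes 37.6% were called lower, and 75.0% were called in either direction. PSMB9, an interferon-inducible catalytic subunit encoded next to TAP1, had 1.63 and 1.13 CPM in baicalein 1 and 2, against 5.29 and 5.70 CPM in control 1 and 2. Its counts were 89 and 42 in baicalein 1 and 2 and 250 and 268 in control 1 and 2 (log2 fold change -1.96, SE 0.15, adjusted p = 1.00e-10). PSMB9 made up 2.81% and 2.04% of the counts of PSMB9 and PSMB6, the subunit whose place it takes, in baicalein 1 and 2, against 7.17% and 7.32% in control 1 and 2. PSMB8 fell to 18.4 and 16.6 CPM in baicalein 1 and 2, against 22.8 and 23.8 CPM in control 1 and 2, with a log2 fold change of -0.41, or -0.26 with GC content and length corrected. The activator genes PSME1 and PSME2 had log2 fold changes of -0.87 and -0.71. The constitutive subunits PSMB5, PSMB6 and PSMB7 fell by 0.17, 0.35 and 0.15 on the log2 scale, and without baicalein 1 or without baicalein 2 the call of PSMB6 was the only 1 of the 3 left.

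Genes that trim and load peptides moved in both directions. Of 8 trimming genes 3 were higher and 4 lower (median -0.12), near the 37.4% and 37.6% of all tested genes, so the counts of this list and of the loading, class I-like and marker lists are given as descriptions. ERAP2, an aminopeptidase of the endoplasmic reticulum, had 3.73 and 3.70 CPM in baicalein 1 and 2, against 11.3 and 10.8 CPM in control 1 and 2. Its relative ERAP1 rose, to 38.7 and 37.7 CPM in baicalein 1 and 2, against 27.8 and 27.9 CPM in control 1 and 2. The cytosolic peptidase gene THOP1 had a log2 fold change of -1.04, and HM13, whose product frees the leader peptides that HLA-E binds, had 0.61. Of 6 loading partners 3 were higher and 2 lower (median 0.26). The chaperone gene CANX rose to 1874 and 1920 CPM in baicalein 1 and 2, against 834 and 836 CPM in control 1 and 2, and PDIA3, which codes for ERp57, had a log2 fold change of 0.51. UGGT1, a sensor of glycoprotein folding, had 0.36, or 0.21 with GC content and length corrected. CALR, which codes for calreticulin and was named after its values were seen, had -0.28, or -0.14 under that correction. BCAP31, a cargo receptor for class I molecules, had -0.34, or -0.05 without a call when GC content and length were corrected (adjusted p = 0.145, against 6.94e-24 to 0.155 over 15 alternatives).

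The factors that act on class I promoters rose in part. All 5 NF-kB subunit genes were higher (median 0.71), against 37.4% of all tested genes. RELB had 22.8 and 22.9 CPM in baicalein 1 and 2, against 3.54 and 3.32 CPM in control 1 and 2. NFKB2, NFKB1 and RELA had log2 fold changes of 0.93, 0.71 and 0.51. REL, named after its values were seen, had 0.27, and lost its call under the GC and length correction (0.11, adjusted p = 0.0658). On the same strand 43.3% of the exon bases of REL lie in AC010733.2 as well, so the split between these rows is uncertain. IRF1, an interferon-induced activator that binds ISREs, had 21.4 and 23.4 CPM in baicalein 1 and 2, against 2.24 and 2.79 CPM in control 1 and 2. Its log2 fold change was 3.15 (SE 0.11, adjusted p = 1.80e-17), above that of NLRC5. Exons of IRF1 overlap those of C5orf56 on the opposite strand over 22% of their bases, C5orf56 having 83 and 67 counts in baicalein 1 and 2 and 33 and 24 in control 1 and 2. Of 10 genes of the SXY-binding factors and their coactivators, 5 were higher and 3 lower (median 0.27). The shares over all tested genes were 37.4% and 37.6%, so these counts are given as descriptions. RFX5, the DNA-binding subunit of the RFX complex, fell to 48.8 and 47.2 CPM in baicalein 1 and 2, against 91.7 and 94.5 CPM in control 1 and 2. The coactivator genes CREBBP and EP300 had log2 fold changes of 0.87 and 0.49, and ATF1, which codes for a CREB relative, had 0.74.

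Of 14 genes of the interferon pathway that leads to class I, IRF1 among them, 5 were higher and 9 lower (median -0.40). Over all tested genes 37.4% were higher and 37.6% lower, so the count of higher genes was near the share of all genes. The receptor genes IFNAR2 and IFNGR2 fell, with log2 fold changes of -2.35 and -0.68. The partner receptor gene IFNGR1 rose (0.73, adjusted p = 5.11e-09), as did the kinase gene JAK2 (1.04, adjusted p = 2.74e-10), both named after their values were seen. IFNAR2 had 1.19 and 1.42 CPM in baicalein 1 and 2, against 7.18 and 6.0 CPM in control 1 and 2. Of its exon bases 44.2% lie in the read-through gene AP000295.1 as well, which had 26 and 0 counts in baicalein 1 and 2 and 57 and 117 in control 1 and 2, so the split between them is uncertain. The kinase gene JAK1 fell to 304 and 304 CPM in baicalein 1 and 2, against 507 and 481 CPM in control 1 and 2. With GC content and length corrected, 4 of the 14 genes were higher and 7 lower, against 40.9% and 35.9% of all genes in that fit.

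**Figure D4:**
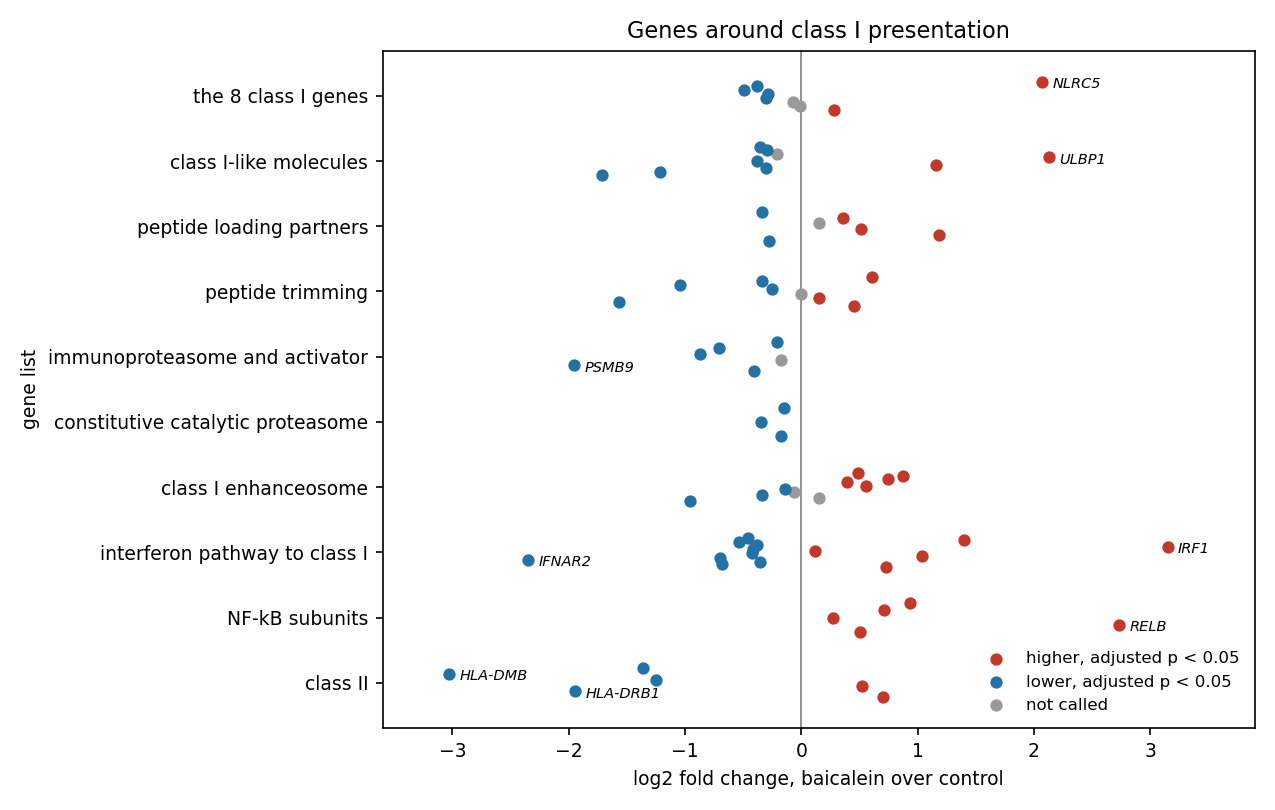
Log2 fold change of baicalein over control for each tested gene of 10 lists (1 row each), red for called higher, blue for called lower and grey for not called, with genes beyond 1.9 in size named. All 5 NF-kB genes lie above 0, the tested immunoproteasome genes lie below it, and NLRC5, ULBP1, IRF1 and RELB lie furthest to the right.

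Molecules related to class I also moved. Of 9 tested class I-like genes 2 were higher and 6 lower (median -0.31). ULBP1 and MICA, ligands of the NKG2D receptor on natural killer and T cells, were the higher ones. Other NKG2D ligands in the list, named after their values were seen, were not called higher. MICB had 90.18 and 92.74 CPM in baicalein 1 and 2, against 116.9 and 121.6 CPM in control 1 and 2 (log2 fold change -0.38, adjusted p = 2.96e-08). ULBP3 had -0.30 (adjusted p = 0.0341), a call lost with GC content and length corrected (-0.21, adjusted p = 0.124), and ULBP2 had -0.21 (adjusted p = 0.244). ULBP1 had 33.5 and 35.5 CPM in baicalein 1 and 2, against 7.30 and 8.42 CPM in control 1 and 2, and MICA had 23.0 and 20.6 CPM in baicalein 1 and 2, against 9.86 and 9.68 CPM in control 1 and 2. The lower ones included HFE, an iron regulator that pairs with beta-2-microglobulin, at 19.8 and 18.7 CPM in baicalein 1 and 2, against 63.7 and 63.0 CPM in control 1 and 2. FCGRT, the neonatal Fc receptor gene, had a log2 fold change of -1.22.

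Class II genes, which serve CD4 T cells, were weakly expressed, and 7 of 12 had a row. Of 6 tested, 2 were higher and 4 lower (median -1.30), against 37.4% and 37.6% of all tested genes. These counts are given as descriptions. CD74, the invariant chain gene, had 8.21 and 7.54 CPM in baicalein 1 and 2, against 19.2 and 21.4 CPM in control 1 and 2. HLA-DMA and HLA-DRB1 had log2 fold changes of -1.25 and -1.95, and HLA-DMB had 6 and 3 counts in baicalein 1 and 2, against 42 and 35 in control 1 and 2. The higher 2, named after their values were seen, were CIITA, the class II counterpart of NLRC5, with 0.70, and HLA-DQB1 with 0.52 (adjusted p = 0.0119). In DESeq2, at a threshold of 0.01, without control 1 and without baicalein 1, the count of higher class II genes was 1. The immune cell markers stood at the summed levels given above, and their part in the class II values was not tested.

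By Euclidean distance between log2 CPM values centred on each gene's mean over the 4 libraries, the genes most like NLRC5 were HSD17B7, ARRDC4 and ZSCAN12 (distances 0.0457, 0.0539 and 0.106). Those most like B2M were GPR176, RP2 and PSMD12 (0.0122, 0.0164 and 0.0184), out of 12611 genes searched. The 3 genes nearest NLRC5 had log2 fold changes of 2.09, 2.08 and 2.01, and those nearest B2M -0.30, -0.31 and -0.32.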

How the data were processed

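Poly(A) RNA of 2 baicalein-treated and 2 control T47D samples was sequenced, per the labels. The deposited values are whole-number counts for each gene, not scaled to library size. GRCh38, DESeq2 1.34, RSEM 1.3.3 and STAR 2.7.8a, beside FastQC 0.11.8 and cutadapt 2.3, stand in the submitters' processing notes without roles. The annotation release, strand use, and whether counts are rounded RSEM estimates: not given in the sources used here. Row totals were at least 10. Columns were matched to samples by their descriptions.

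Symbols came from a table of gene names that held 20470 of the 20515 identifiers. Coordinates, lengths and overlaps came from GENCODE release 29 on GRCh38. The test on counts was edgeR 4.0.16 under R 4.3.3 (robust quasi-likelihood F test, TMM factors, no covariates) on the 18369 genes that filterByExpr kept (minimum count 10, minimum total 15), with Benjamini-Hochberg adjustment and a threshold of 0.05. The standard error is the log2 fold change divided by the square root of F, and the 95% interval uses the test's degrees of freedom. Intervals and the floor of 3 counts cover counting and replicate error only; without molecular identifiers, reads cannot be taken as independent molecules. The common biological coefficient of variation was 0.0383. The method was tested on simulated counts. The chi-square per gene between the 2 libraries of a group averaged 2.43 in baicalein and 9.61 in control, above sampling noise.

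The 8 genes, the lists of pathway genes and cell markers, the motifs and the tests were chosen with earlier results of these data known, and the motif patterns with the promoters in view. The rule for named genes took the 8 genes, the 4 members of each list with the smallest adjusted p, and the 3 genes most like B2M and NLRC5 with a mean log2 CPM of at least 1. Some genes of these lists are not reported here. Others are said to be named after their values were seen, as were HLA-G, PTPRC and PSMB10. Alternatives were DESeq2 size factors, upper-quartile factors, library totals, no filter, 50 counts in 2 libraries, DESeq2 1.42.0, limma-voom (limma 3.58.1), a threshold of 0.01, the replicate number as a block, a correction for GC content and length (mgcv 1.9.3) with and without that block, and leaving out each library, which leaves 1 sample in its group that is assumed to vary like the other group.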

Additional observations from a re-analysis of the deposited data

How the results depend on the processing

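NLRC5, HLA-B, B2M, TAP2 and TAPBP kept their direction and their side of the threshold in all 15 alternatives run, with log2 fold changes of 1.96 to 2.20, 0.17 to 0.56, -0.41 to -0.26, -0.60 to -0.41 and -0.48 to -0.15. With library totals alone, which moved the median of all genes to -0.10, HLA-C had -0.12 and HLA-E -0.18, both called, and the heavy-chain sum reversed to -0.039. Upper-quartile factors gave HLA-E -0.11, which was called. With GC content and length corrected, HLA-C had 0.36, HLA-E 0.10, the heavy-chain sum 0.34 and TAP1 -0.051, and 4 of the 8 genes were called higher. Adding the replicate block to this correction gave 0.36, 0.10, 0.34 and -0.050 for these, with 4 called higher. Replicate numbers are shared by the groups, but same-numbered libraries did not deviate together (r = 0.0136 across genes), and the replicate block alone changed no call of the 8 genes, with NLRC5 at 2.07, HLA-B at 0.28 and TAP2 at -0.49. Leaving out each library in turn gave -0.069 to 0.043 for HLA-C, -0.12 to -0.024 for HLA-E and 0.028 to 0.10 for the sum. The uncalled marker CD68 had 0.063 with the correction, 0.085 with the block added and -0.25 to 0.091 with a library left out. Of 45 other named genes 41 kept direction and call throughout. The causes were not tested. The lowest count of any of the 8 genes in a library was 182, for NLRC5, and 2 libraries a group limit how well small changes are measured.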
